A study of Mus musculus with 8 samples.

Results

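The genes described were 10 genes of the cytosolic heat shock system, found by their listed symbols through the Ensembl IDs of the deposited table, and they were 10 of 55414 genes in it. They were the HSP70 chaperone genes Hspa1a, Hspa1b and Hspa8, the HSP90 genes Hsp90aa1 and Hsp90ab1, the HSP110 gene Hsph1, the co-chaperone genes Dnajb1 and Bag3, the small heat shock protein gene Hspb1 and the regulator gene Hsf1. RNA was sequenced from Paneth cells, the antimicrobial secretory cells of the small intestinal crypts, which the labels describe as sorter-purified from the small intestine of WT mice. The study describes C57BL/6J animals for its Paneth cell sorts, with each sample from a single mouse. The 4 PBS mice had received phosphate-buffered saline and the 4 TNF mice tumor necrosis factor, an inflammatory cytokine, and cells of both groups were collected 3 hours after the injection. Neither the labels nor the study's methods give the age of these mice or the TNF dose.

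Heat shock proteins are chaperones: they hold, refold or hand on proteins that have lost their shape. In unstressed cells Hspa8 and Hsp90ab1 are made all the time, whereas Hspa1a, Hspa1b, Hspb1 and part of Hsph1, Dnajb1, Bag3 and Hsp90aa1 transcription is switched on under proteotoxic stress by the transcription factor Hsf1. That factor binds heat shock elements, inverted repeats of a short GAA unit, in the promoters of its targets. Paneth cells fold and secrete large amounts of protein, most of it through the endoplasmic reticulum (ER), which has chaperones of its own.

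The letters of such elements in the promoters of the members are shown first because the factor that reads them, Hsf1, is itself a member. In a window from 250 bases before to 50 after the canonical transcript start (GRCm39), a head-to-head pair of units, GAANNTTC, was found in Hspa1a, Hspa1b, Dnajb1 and Hspb1. A tail-to-tail pair, TTCNNGAA, was found in Hsph1. The other 5 members held neither pair. Of 21770 promoters of protein-coding genes cut in the same way, 7.41% held GAANNTTC and 7.98% held TTCNNGAA. Both pairs read the same on either strand, and the stricter form with 3 units in a row (GAANNTTCNNGAA or TTCNNGAANNTTC, each containing both pairs) was in 0 members and 0.478% of promoters. The AP-1 letters TGANTCA were in Bag3 and Hsp90ab1 and in 7.14% of promoters. The NF-kB decamer, searched on both strands, was found in 4 members, Hspa1a, Hspa1b and Bag3 among them, and in 8.97% of promoters. A match describes the letters and is not a bound site, and no match says only that these letters are not in this window. The 250 bases before the start are printed below for the members with a pair of units there and for Bag3, the member whose RNA rose most. Each runs 5′ to 3′ on the strand of its gene, and capitals mark the pairs of units and the NF-kB decamer. They are Hspa1a (chr17:35191133-35191382, minus strand), Hspb1 (chr5:135916510-135916759, plus strand), Hsph1 (chr5:149559807-149560056, minus strand) and Bag3 (chr7:128125033-128125282, plus strand).
Hspa1a: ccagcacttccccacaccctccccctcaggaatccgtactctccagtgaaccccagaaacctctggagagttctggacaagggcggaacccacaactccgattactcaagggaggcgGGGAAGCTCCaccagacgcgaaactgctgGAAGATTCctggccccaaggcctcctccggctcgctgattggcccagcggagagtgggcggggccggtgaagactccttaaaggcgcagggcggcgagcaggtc
Hspb1: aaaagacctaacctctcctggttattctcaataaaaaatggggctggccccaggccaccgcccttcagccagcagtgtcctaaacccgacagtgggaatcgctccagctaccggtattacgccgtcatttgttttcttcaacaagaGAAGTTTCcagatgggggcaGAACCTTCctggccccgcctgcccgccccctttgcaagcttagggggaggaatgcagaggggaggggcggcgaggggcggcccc
Hsph1: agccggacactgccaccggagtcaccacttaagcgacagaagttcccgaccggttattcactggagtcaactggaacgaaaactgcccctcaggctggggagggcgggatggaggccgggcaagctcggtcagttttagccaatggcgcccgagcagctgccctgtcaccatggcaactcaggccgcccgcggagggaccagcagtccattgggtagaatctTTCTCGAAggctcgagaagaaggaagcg
Bag3: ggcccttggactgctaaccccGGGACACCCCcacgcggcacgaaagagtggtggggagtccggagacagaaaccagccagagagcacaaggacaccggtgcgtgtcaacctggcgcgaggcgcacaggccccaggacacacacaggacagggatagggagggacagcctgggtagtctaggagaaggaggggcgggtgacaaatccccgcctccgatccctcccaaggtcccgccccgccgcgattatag

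In Hspa1a the decamer began at -133 and the pair of units at -104, counted from the start. The window of Hspa1b was not printed, since 296 of its 300 bases (98.7%) were the same as in Hspa1a and its matches lay at the same positions. Hspb1 held pairs at -104 and -84, and Hsph1 at -28 and at 42 bases into the transcript. The pair of Dnajb1 lay inside the transcript, at position 29. The decamer of Bag3 lay far upstream, at -229, and its AP-1 letters lay at position 5.

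Libraries held 23824717 to 32576077 counts, and 13368 genes passed the filter on low counts. TNF replicate 4 stood apart. It gave 51.4% of its counts to alpha-defensin (Defa) genes against 32.0% to 37.9% in the other 7, and its TMM scaling factor, which offsets such a shift, was 0.448 against 0.995 to 1.36. Its mitochondrial share of counts was the highest, 1.01% against 0.595% to 0.797%. Its 16712 detected genes were the fewest, against 17529 to 19135. The 10 members together took 0.0585% of its counts against 0.112% to 0.138% in the other 7 libraries. For members, named network genes and counts of lists, values without it are given where leaving it out changed a call. Per gene, 5746 of 13368 tested genes (43.0%) were called between TNF and PBS by the quasi-likelihood test of edgeR at a Benjamini-Hochberg adjusted p under 0.05, 23.3% higher and 19.6% lower in TNF, with a median of 0.03 for the log2 fold change. The labelled cell type was checked by 8 Paneth markers, which all passed the filter, with a summed level of 432886 to 493256 CPM (counts scaled to a library total of 1e6) in PBS and 436860 to 554044 in TNF, or 436860 to 460278 without TNF replicate 4.

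In PBS the members lay at ranks from 103 to 12739 or below the filter. Levels between genes are compared per kilobase (kb) of the canonical transcript, as normalized CPM, among 13316 tested genes with a length. Hsp90ab1, the constitutive HSP90, was highest of the members with 205 ± 19.0 normalized CPM per kb (SD, n = 4), rank 103. Hspa8, the constitutive HSP70, had 156 ± 21.4 at rank 131, and its range of 131 to 184 did not overlap the 185 to 229 of Hsp90ab1. Hsp90aa1 followed with 23.9 ± 3.46 at rank 938 and Bag3 with 8.57 ± 1.24 at rank 2772. Dnajb1 (4.38) and Hsph1 (4.35) were neighbours with overlapping ranges. Hsf1 had 1.93 ± 0.124 and Hspa1b 0.178 ± 0.100, rank 12739. Hspa1a (0.0507) and Hspb1 (0.0491) did not pass the filter, and their ranges overlapped. The constitutive chaperones were thus among the top 131 genes, while the inducible HSP70 pair and Hspb1 were near the bottom.

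TNF against PBS asks how the cytokine changes RNA levels in Paneth cells within 3 hours. Of the 10 members, 8 were tested and 3 of them, Bag3, Dnajb1 and Hsp90aa1, rose, while 0 fell. At an unadjusted p under 0.05 of the same edgeR test 4 were higher and 0 lower, and DESeq2 and limma-voom each called 4 higher and 0 lower. Of 13368 tested genes DESeq2 called 3217 higher and 2852 lower, and limma-voom 3152 and 2773. The share of all genes at an unadjusted p was not taken. Bag3, Dnajb1 and Hsp90aa1 also had no overlap between the groups in normalized CPM, as had 42.1% of all tested genes. In CPM without TMM scaling the groups overlapped for each of these 3, with TNF replicate 4 below every PBS library. The median log2 fold change of the 8 was 0.35 beside 0.03 for all tested genes, and 3 of 8 is to be read against the 23.3% of tested genes called higher. The other 5 tested members did not pass the test, with log2 fold changes of -0.15 to 0.42.

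**Figure D1:**
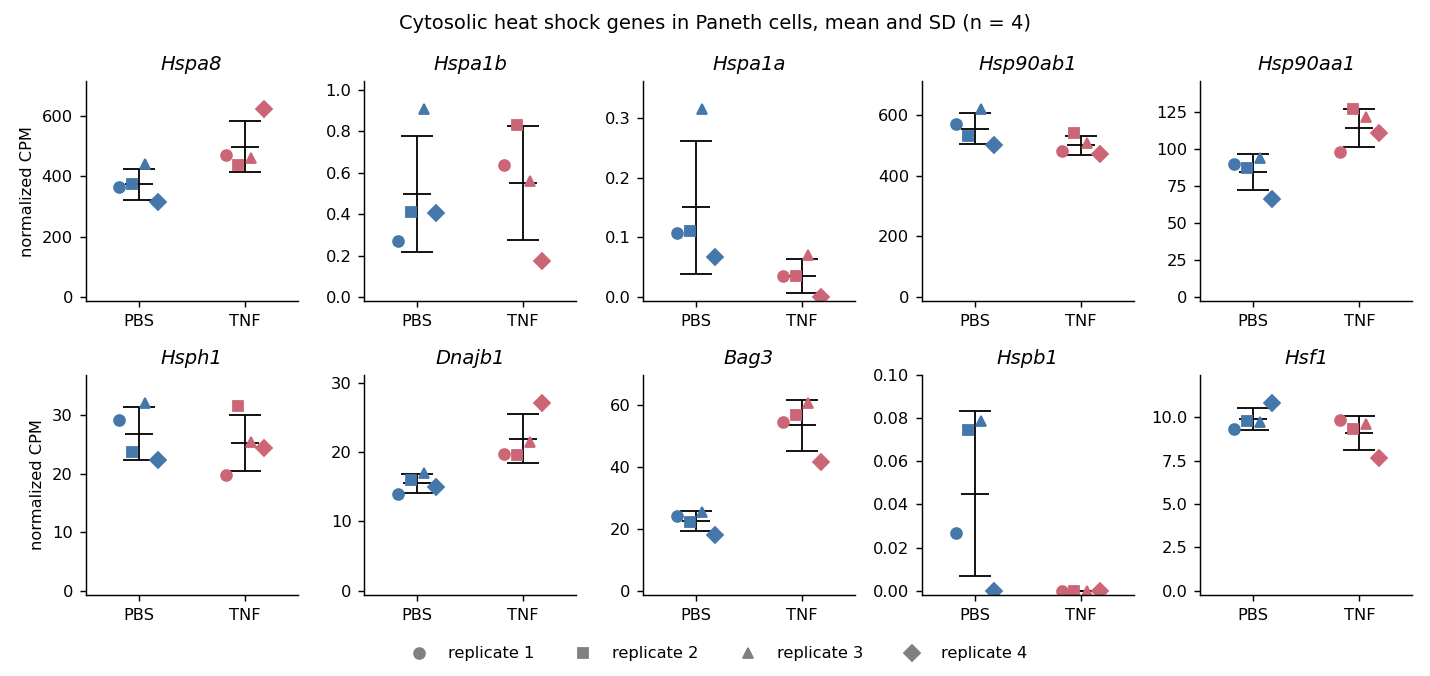
Normalized CPM (y axis, linear, from 0, scaled separately per panel) of the 10 members in each PBS (blue) and TNF (red) library; marker shapes give the replicate number, and bars the mean and SD of 4 libraries. Bag3, Dnajb1 and Hsp90aa1 show no overlap between the groups, and Hspa1a, Hspa1b and Hspb1 stay under 1 normalized CPM.

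Hspa8 (ENSMUSG00000015656, chr9:40711630-40731039) encodes the constitutive HSP70, which folds new chains and strips clathrin coats. It had 365, 374, 440 and 315 normalized CPM in PBS replicates 1 to 4. In TNF replicates 1 to 4 it had 473, 437, 462 and 623. TNF replicate 4 was the highest of the 8 libraries, while TNF replicate 2 lay just under PBS replicate 3, so the groups overlapped. In CPM without TMM scaling TNF replicate 4 was the lowest, with 279 against 393 to 522 in the other libraries. The means were 373 ± 51.3 and 499 ± 84.2 (SD, n = 4 each), with a log2 fold change of 0.42 (SE 0.17, 95% interval 0.05 to 0.79), and Hspa8 did not pass the edgeR test (adjusted p = 0.0648). Without TNF replicate 4 the log2 fold change was 0.31 with an edgeR adjusted p of 0.0486, past the threshold, and DESeq2 (adjusted p = 0.0262) and limma-voom (0.0384) also called it on all libraries. With library size alone as the scaling the value turned to -0.02.

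Hspa1a and Hspa1b encode the stress-inducible HSP70 as near-identical copies next to each other on chromosome 17 (35188166 to 35191132 and 35175412 to 35178214, both minus strand, 1 exon each). Raw counts of Hspa1a were 4, 3, 8 and 3 in the PBS libraries and 1, 1, 2 and 0 in the TNF libraries. Those of Hspa1b were 10, 11, 23 and 18 in PBS and 18, 24, 16 and 2 in TNF. In no library did either gene exceed 24 counts, and the 0 of Hspa1a in TNF replicate 4 allows a level of up to 0.115 CPM. Of the 75-base stretches of Hspa1a, 52.7% also occur in Hspa1b, so reads may have been split between them or dropped, and the sum of both is the safer value. The sum had 0.649 ± 0.387 normalized CPM in PBS and 0.586 ± 0.294 in TNF, with an edgeR log2 fold change of -0.01 (95% interval -1.09 to 1.07, adjusted p = 0.989). That interval reaches past 1 log2 unit in both directions, so a smaller change was not detectable at this depth. The sign of the sum turned when TNF replicate 4 (0.22) or PBS replicate 3 (0.45) was left out.

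Reads on the inducible pair were also set against those on Hspa8 within each library. The log2 of this ratio was -9.92, -9.49, -8.49 and -9.37 in PBS and -9.45, -8.98, -9.51 and -11.8 in TNF. The groups overlapped, and the log2 ratio differed by -0.62 between the group means (exact permutation test over 70 assignments, two-sided, p = 0.457). Without TNF replicate 4 that difference was 0.0028. The canonical transcripts of Hspa1a (2967 bases), Hspa1b (2803) and Hspa8 (2394) are of similar length, so inducible HSP70 RNA was a trace beside the constitutive form in every library.

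The genes whose deviations from the group means, on the log2 scale and over 8 libraries, were most like those of Hspa1a plus Hspa1b were Xpa (r = 0.971), Gm38560 (0.967), Def8 (0.964), Gm16863 (0.964) and Minpp1 (0.954). Without TNF replicate 4 the same 5 had r of 0.914 to 0.950 over 7 libraries. This is a description over libraries in which the sum held 2 to 31 counts.

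Hsp90ab1 (ENSMUSG00000023944, chr17:45878552-45891949), the constitutive HSP90 that matures kinases and steroid receptors, had 570, 530, 619 and 501 normalized CPM in PBS. In TNF it had 480, 541, 508 and 471. The TNF values lay in and just under the PBS range. Its log2 fold change was -0.15 (SE 0.14, 95% interval -0.46 to 0.16), and it did not pass the edgeR test (adjusted p = 0.409). With library size alone as the scaling and without TNF replicate 4, an alternative chosen after seeing the data, it was called lower (-0.28, adjusted p = 0.0467).

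Hsp90aa1 (ENSMUSG00000021270, chr12:110656842-110669166), the stress-responsive HSP90, had 89.6, 87.2, 93.8 and 66.4 normalized CPM in PBS. In TNF it had 98.2, 127, 122 and 111. All 4 TNF libraries stood above all 4 PBS libraries, although TNF replicate 1 exceeded PBS replicate 3 by little. In CPM without TMM scaling TNF replicate 4 had 49.7, below the 90.1 to 113 of PBS. Its mean rose from 84.3 ± 12.2 to 114 ± 12.8, and the log2 fold change was 0.44 (SE 0.14, 95% interval 0.13 to 0.75, edgeR adjusted p = 0.0267). This call was the least stable of the 3. Leaving out PBS replicate 1 (adjusted p = 0.0834), 2 (0.0546) or 4 (0.106), or TNF replicate 2 (0.135) or 3 (0.0625), took it over the threshold, at log2 fold changes of 0.31 to 0.46. With library size alone as the scaling the value dropped to 0.07 and was not called.

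The ratio of both HSP90 RNAs within a library needs no scaling between libraries. For every 100 reads on Hsp90ab1, Hsp90aa1 had 15.7, 16.5, 15.2 and 13.3 reads in PBS and 20.5, 23.5, 24.0 and 23.5 in TNF. TNF replicate 4, which stood apart in so much else, had nearly the same ratio here as TNF replicate 2. The ratio was 15.2 ± 1.36 in PBS and 22.9 ± 1.62 in TNF, a log2 difference of 0.60, with no overlap between groups. An exact two-sided permutation test gave p = 0.0286, the smallest that 4 against 4 libraries allow, and 0.0571 after adjustment over the 2 ratios tested. Both genes were chosen with earlier results of these data known, which neither p takes into account. Leaving out any 1 library kept the log2 difference at 0.53 to 0.65. The ratio does not say which of the genes changed.

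**Figure D2:**
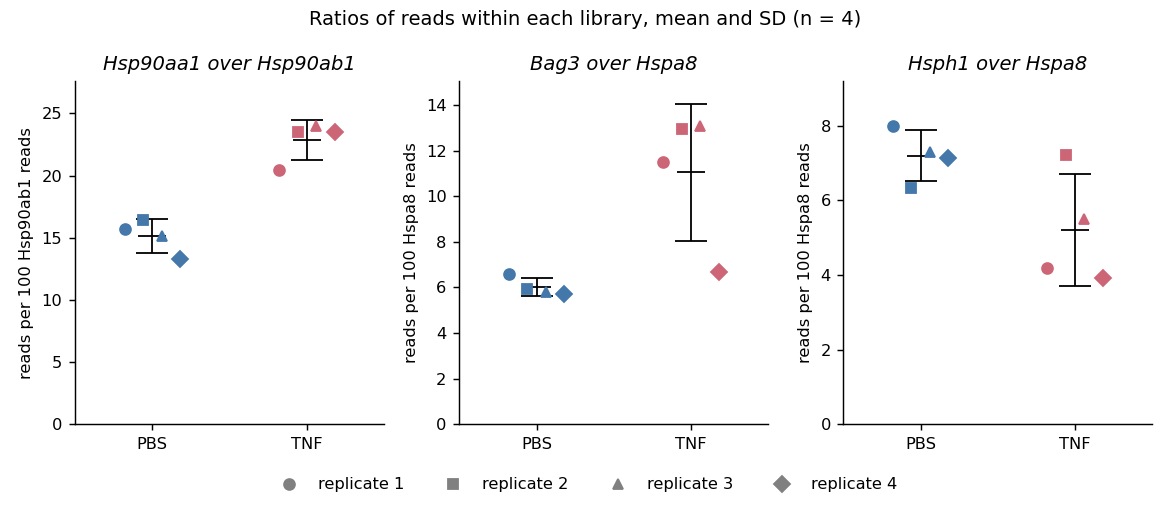
Reads on Hsp90aa1 per 100 reads on Hsp90ab1 (left), on Bag3 per 100 on Hspa8 (middle) and on Hsph1 per 100 on Hspa8 (right) in each PBS (blue) and TNF (red) library, with mean and SD of 4 libraries; y axes start at 0. The HSP90 ratio is 13.3 to 16.5 in PBS and 20.5 to 24.0 in TNF, while TNF replicate 4 (diamond) lies close to PBS in the middle panel. The ratios to Hspa8 were chosen after the values were seen and were not tested.

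Hsph1 (ENSMUSG00000029657, chr5:149537636-149560156) encodes HSP110, a nucleotide exchange factor of HSP70 that helps to take aggregates apart. It had 29.1, 23.7, 32.1 and 22.4 normalized CPM in PBS and 19.8, 31.5, 25.4 and 24.4 in TNF. The groups overlapped over most of their range. The log2 fold change was -0.09 (95% interval -0.45 to 0.28, edgeR adjusted p = 0.703), and it turned to 0.0085 without PBS replicate 3. Set against its HSP70 partner, in a ratio chosen after the values were seen and given with no test, Hsph1 had 7.99, 6.33, 7.30 and 7.13 reads per 100 reads on Hspa8 in PBS and 4.19, 7.21, 5.49 and 3.92 in TNF, with overlap.

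Dnajb1 (ENSMUSG00000005483, chr8:84334811-84339820), the J-domain protein that feeds clients to HSP70, had 13.9, 16.04, 17.0 and 14.9 normalized CPM in PBS. In TNF it had 19.7, 19.5, 21.4 and 27.1. The groups did not overlap on this scale, and TNF replicate 4 was the highest library. In CPM without TMM scaling it was the lowest, with 12.1 against 16.8 to 20.2 in PBS. Dnajb1 rose from 15.5 ± 1.36 to 21.9 ± 3.52, with 0.50 as the log2 fold change (SE 0.13, 95% interval 0.21 to 0.79, edgeR adjusted p = 0.0113). Without TNF replicate 4 the change was 0.40 (adjusted p = 0.0078), and without PBS replicate 1 it was 0.41 and just missed the threshold (0.0505). Scaling by library size alone brought it to 0.07, without a call. Per 100 reads on Hspa8 Dnajb1 had 3.81, 4.29, 3.87 and 4.74 reads in PBS and 4.18, 4.47, 4.63 and 4.34 in TNF, so the groups overlapped on that scale. That ratio, too, was chosen after the values were seen and was not tested.

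Bag3 (ENSMUSG00000030847, chr7:128125283-128148705) encodes the co-chaperone that links HSP70 and small heat shock proteins to selective autophagy of aggregates. It had 24.1, 22.1, 25.5 and 18.0 normalized CPM in PBS and 54.4, 56.5, 60.5 and 41.6 in TNF. Every TNF library was well above every PBS library on this scale, with TNF replicate 4 the lowest of its group. In CPM without TMM scaling TNF replicate 4 had 18.6, below the 23.2 to 30.2 of PBS, so the groups overlapped there. Bag3 rose from 22.4 ± 3.24 to 53.3 ± 8.17 normalized CPM. The means differed 2.37-fold and the fitted log2 fold change was 1.25 (SE 0.15, 95% interval 0.92 to 1.58, edgeR adjusted p = 7.81e-05). It was the member with the largest log2 fold change, and it kept its call without any 1 library and without TNF replicate 4 had a log2 fold change of 1.37. With library size alone it was 0.92 and no longer called (adjusted p = 0.0698). A ratio to Hspa8 was chosen after the values were seen and is given with no test. Per 100 reads on Hspa8 Bag3 had 6.60, 5.92, 5.80 and 5.73 reads in PBS and 11.5, 12.9, 13.1 and 6.67 in TNF, without overlap. TNF replicate 4 was there barely above PBS replicate 1.

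Hspb1 (ENSMUSG00000004951, chr5:135916760-135918417), the small heat shock protein known as HSP25 in mice, was nearly absent in both groups. It had 1, 2, 2 and 0 counts in PBS and 0 in each TNF library, which allows up to 0.103 to 0.118 CPM per TNF library. No fold is given, since both groups were at or under the limit of 3 counts per library. Of its 75-base stretches 43.2% occur in no other gene, and the pseudogene Hsp25-ps1, which shares 56.8% of them, had 0 to 10 counts.

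Hsf1 (ENSMUSG00000022556, chr15:76361558-76388138), the master regulator of the response, had 9.33, 9.78, 9.70 and 10.8 normalized CPM in PBS and 9.84, 9.35, 9.59 and 7.65 in TNF. The first 3 TNF libraries lay inside the PBS range and TNF replicate 4 below it. The log2 fold change was -0.12 (95% interval -0.39 to 0.16), not past the edgeR threshold (adjusted p = 0.477), and -0.0336 without TNF replicate 4. The gene overlaps Dgat1 and Bop1 on the opposite strand, and the sources do not state whether counting used strand. Hsf1 protein is controlled mainly by its trimerization and modification, which RNA levels do not measure.

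**Figure D3:**
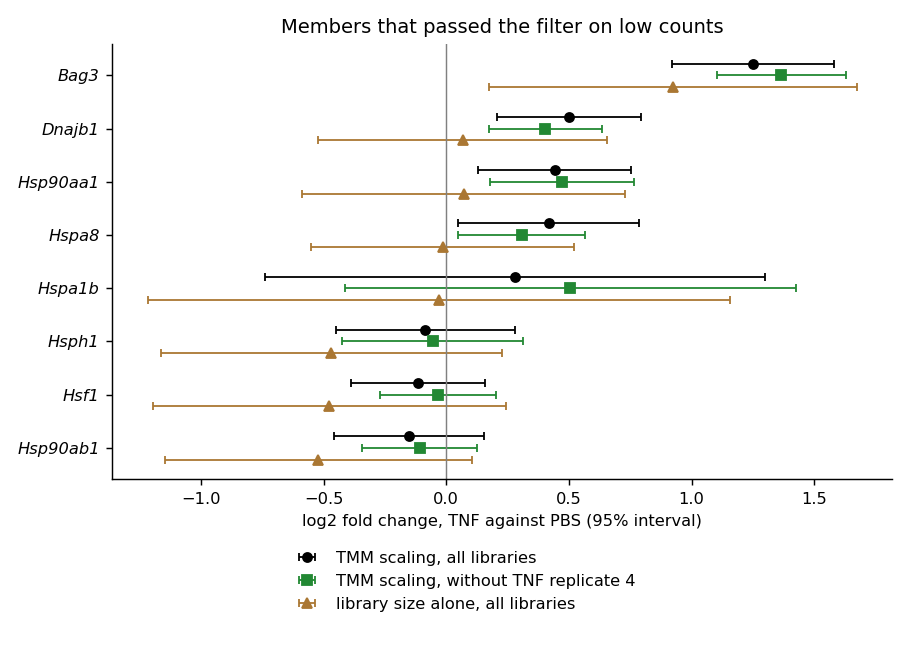
Log2 fold change of TNF against PBS (x axis, points) with 95% intervals (bars) for the 8 members tested, under TMM scaling of all libraries (black), TMM scaling without TNF replicate 4 (green) and library size alone (brown). Bag3 lies above 0 in all 3 settings; Hspa8 and Hspa1b turn from 0.42 and 0.28 to -0.02 and -0.03 under library size alone.

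Scaling by library size alone lowered the log2 fold change of each tested member. It shifted the median over all tested genes by -0.40, and under it the edgeR test called 0 members (Bag3 alone had an unadjusted p under 0.05), beside 5.66% of genes called higher and 18.1% lower. Hsp90aa1 had 0.07 (adjusted p = 0.888), Dnajb1 0.07 (adjusted p = 0.880) and Hsf1 -0.48 (adjusted p = 0.319) there. Relative to the median of all genes, a centring that by construction removes most of this shift, Bag3 stood at 1.22 under TMM and at 1.30 under library size alone. The corresponding values of Hsp90aa1 were 0.42 and 0.45, those of Dnajb1 0.47 and 0.45, those of Hspa8 0.39 and 0.36 and those of Hsp90ab1 -0.18 and -0.14. Without TNF replicate 4 under TMM 4 members were called higher, Hspa8 in addition to the 3, beside 26.6% of genes higher and 23.8% lower. With library size alone and without that library, 1 member was called higher (Bag3, 1.20, adjusted p = 5.17e-05) and 1 lower (Hsp90ab1), beside 16.4% and 28.2% of genes, while Dnajb1 (0.23, adjusted p = 0.166) and Hsp90aa1 (0.30, adjusted p = 0.0630) were not called.

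The other genes of the cytosolic and organellar chaperone network were followed in 9 lists of 84 genes, none of them a member. Of these, 74 were tested, 22 (29.7%) rose and 7 (9.46%) fell, with a median log2 fold change of 0.26, beside 23.3% higher, 19.6% lower and a median of 0.03 among all tested genes. When TNF replicate 4 was left out, 27 were called higher and 11 lower. Under library size alone 1 was called higher and 8 lower. In each list the values of the 2 genes with the smallest p are given from the edgeR test.

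Of 9 cytosolic J-domain genes, 5 rose and 2 fell, with a median of 0.65, and without TNF replicate 4 there were 6 higher and 2 lower. Dnajb6, which holds back aggregation, rose from 13.1 ± 0.770 to 26.5 ± 3.44 normalized CPM (log2 fold change 1.01, adjusted p = 7.53e-05). Dnaja1 rose from 23.3 ± 2.12 to 39.4 ± 2.62 (0.76, adjusted p = 0.000263). Their log2 fold changes were above the 0.50 of Dnajb1, a difference that was not tested. The 2 that fell were Dnaja4 (-0.62) and Dnajb4 (-0.81), named after their values were seen.

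Of 14 HSP90 co-chaperone genes, 5 rose and 1 fell, with a median of 0.18, and 6 were higher and 1 lower without TNF replicate 4. Fkbp5, an immunophilin of steroid receptor complexes and a textbook glucocorticoid target, rose from 14.5 ± 2.69 to 37.4 ± 8.48 normalized CPM (1.37, adjusted p = 0.000185). Ptges3, the p23 co-chaperone, rose from 33.8 ± 3.43 to 57.7 ± 2.67 (0.77, adjusted p = 0.000241). The gene that fell was Fkbp4 (-0.60), another immunophilin of the same complexes, named after its value was seen. The classic partners Stip1, Cdc37 and Ahsa1 had 0.06, 0.09 and 0.14 and were not called.

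Of 15 other HSP70 and HSP110 genes and HSP70 cofactors, 12 were tested, 3 rose and 1 fell, against 4 higher and 2 lower without TNF replicate 4. Bag4, a BAG domain protein that also binds TNF receptor tails, fell from 12.8 ± 0.737 to 8.53 ± 0.632 normalized CPM (-0.58, adjusted p = 0.00186). Bag2, which inhibits the ubiquitin ligase encoded by Stub1, rose from 1.80 ± 0.327 to 3.17 ± 0.513 (0.81, adjusted p = 0.00897). The BAG family thus moved in both directions, with Bag3 and Bag2 up and Bag4 down, and Bag1, Bag5 and Bag6 at 0.14, -0.14 and 0.32 without a call.

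Of 8 other small heat shock protein genes, 2 passed the filter. Hspb8, the partner that Bag3 protein binds, rose from 4.71 ± 0.514 to 8.09 ± 1.90 normalized CPM (0.79, adjusted p = 0.00568). Hspb6 fell from 1.61 ± 0.603 to 0.522 ± 0.306 (-1.60, adjusted p = 0.0110). Cryaa, Hspb2 and Hspb3 had 0 counts in all 8 libraries. Most of the family, Hspb1 included, thus stayed under the filter that Hspb8 passed.

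Of 6 ubiquitin and triage partners, 1 rose and 1 fell, and leaving out TNF replicate 4 gave 2 higher and 1 lower. Sqstm1, the p62 autophagy receptor that works with Bag3, rose from 156 ± 12.2 to 889 ± 106 normalized CPM (2.51, adjusted p = 8.56e-07). It had the largest log2 fold change of the 74 network genes tested. Stub1, the ligase that marks HSP70 clients, fell from 33.2 ± 2.33 to 24.5 ± 1.22 (-0.44, adjusted p = 0.00506).

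Of 14 TRiC chaperonin and prefoldin subunit genes 4 rose, with a median of 0.45. Cct3 rose from 59.5 ± 8.95 to 104 ± 19.8 normalized CPM (0.80, adjusted p = 0.00234) and Tcp1 from 93.3 ± 13.5 to 145 ± 30.9 (0.63, adjusted p = 0.0114). Without TNF replicate 4 the median of this list was 0.28, with 5 called higher.

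Of 8 mitochondrial chaperone genes 1 rose, Grpel1 (0.96, adjusted p = 0.0178), from 24.3 ± 3.55 to 47.6 ± 24.6 normalized CPM. TNF replicate 4 alone had 84.5, against 34.9 to 35.7 in the other TNF libraries, and without it the log2 fold change was 0.55 (adjusted p = 0.00248). Grpel2 had -0.50 and missed the threshold (adjusted p = 0.0552), but was called lower without that library (-0.69, adjusted p = 0.000943). Of 7 other heat shock factors and HSF1 regulators 6 were tested and 1 rose, Ier5, which brings a phosphatase to Hsf1, from 5.28 ± 0.659 to 11.3 ± 0.812 (1.11, adjusted p = 8.04e-05). Hsf2 had -0.75 and was not called (adjusted p = 0.0536), but was called lower without TNF replicate 4 (-0.91, adjusted p = 0.0144), as 1 of 2 genes of its list.

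Of the 3 ER counterparts, Hspa5, the HSP70 of the ER, rose from 517 ± 128 to 787 ± 93.3 normalized CPM (0.61, adjusted p = 0.0357), a call lost (adjusted p = 0.0637 to 0.104) on leaving out PBS replicate 2, 3 or 4, TNF replicate 1 or TNF replicate 2. Hsp90b1, the HSP90 of the ER, fell from 310 ± 42.0 to 195 ± 14.3 (-0.67, adjusted p = 0.00285). Hyou1, the HSP110 of the ER, had 0.09.

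**Figure D4:**
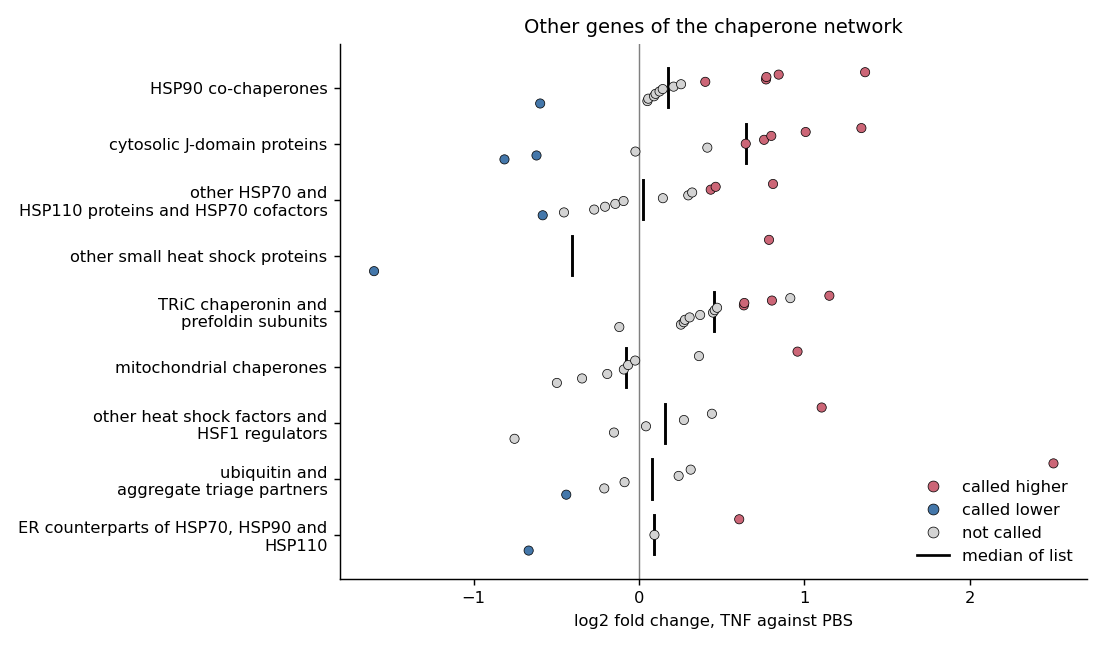
Log2 fold change of TNF against PBS (x axis) for each tested gene (points) of the 9 chaperone network lists (rows; vertical offsets within a row only keep points apart), coloured by whether the edgeR test called it higher (red), lower (blue) or not (grey); black bars mark list medians. The J-domain list has the highest median, 0.65, and Sqstm1 at 2.51 is the farthest point; under library size alone 1 gene in place of 22 was called higher.

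Other values moved with the groups and stand beside these results, and their part in them was not tested. Early response genes, which tissue dissociation can also switch on, were tested in full. Of these 13 genes 9 rose and 2 fell, with a summed level of 327 to 530 CPM in PBS and 392 to 1339 in TNF, or 966 to 1339 without TNF replicate 4. Enteroendocrine and tuft markers had 3 of 6 higher, or 2 without TNF replicate 4 (22.6 to 41.4 CPM summed in PBS, 42.0 to 53.6 in TNF), and crypt stem cell markers 4 of 5 lower (1973 to 2504 CPM in PBS, 783 to 2052 in TNF, or 1395 to 2052 without TNF replicate 4). Goblet markers had 1 of 7 higher and 3 lower (8955 to 12958 CPM in PBS, 10210 to 12919 in TNF), and enterocyte markers 1 of 8 lower (287 to 348 CPM in PBS, 110 to 339 in TNF). The enterocyte sum in TNF without TNF replicate 4 was 307 to 339 CPM, inside the PBS range, with 1 marker called higher and 2 lower. Immune markers summed to 9.06 to 13.2 CPM in PBS and 10.7 to 29.3 in TNF, or 10.7 to 12.5 without TNF replicate 4, with 1 of 8 tested and Cd3e, Cd79a, Adgre1 and S100a8 at 0 in all libraries. Stromal markers summed to 0.273 to 0.614 CPM in PBS and 0.577 to 1.88 in TNF, with 1 of 6 tested and higher, and Col3a1 at 0. In bulk RNA of sorted cells, fewer cells of a type and less RNA per cell cannot be told apart.

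Whether reads matched 1 gene alone also differed among the members. All 75-base stretches of Hsph1 and Dnajb1 occur in no other gene, as do 92.2% of those of Hsp90ab1 and 83.8% of those of Bag3. For Hspa8 it is 32.0%, shared mostly with processed pseudogenes that held at most 67 counts together in a library, against 7251 to 13903 on Hspa8. For Hsp90aa1 it is 50.7%, with at most 15 counts on the genes that share the rest. How reads that match several genes were counted is not stated in the sources, so the counts of Hspa1a, Hspa1b and Hspb1 are uncertain and those of Hspa8 and Hsp90aa1 may be too low. For Hsf1 it is 57.3%, and the genes that share the rest, Dgat1 and Bop1, reached 1329 counts together in a library against 89 to 478 on Hsf1, so its counts are uncertain too.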

How the data were processed

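RNA-seq libraries of sorted mouse Paneth cells (4 PBS, 4 TNF, 3 hours) were analysed, grouped by their labels, each library as 1 replicate. The authors deposited raw read counts per Ensembl gene (55414 IDs, no normalization). The submitters' processing notes name FastQC 0.12, STAR 2.7.10a, DESeq2 and build mm39. The counter, its annotation and its use of strand and of reads matching several genes are not given in the sources that were used here. Symbols, positions and transcripts came from GENCODE M39 (54749 IDs matched, 665 did not), and promoters from the GRCm39 genome. Some items are not reported here.

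Genes were tested on the deposited counts with the quasi-likelihood test of edgeR 4.0.16 in R 4.3.3 (TMM scaling, filterByExpr, no covariate) and called at a Benjamini-Hochberg adjusted p under 0.05 over 13368 genes. Each SE came from its F statistic. Normalized CPM divide counts by the TMM-adjusted library size, and CPM without that word by the plain one. Ratios within libraries were compared by exact permutation tests. Uniqueness was the share of 75-base stretches of the canonical transcript found in no transcript of another gene. The procedure was run on counts simulated from the PBS means, which hold no shift like that of TNF replicate 4, so the run does not bear on that library. No 2 libraries of a group agreed within sampling noise (chi-square per degree of freedom at least 8.77). Limits from 0 counts (3 counts, per library) and 95% intervals cover counting error or the spread between libraries only.

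Named genes were the 10 members, from each of the 9 network lists the 2 genes of smallest p, and the 5 most like Hspa1a plus Hspa1b (log2 of normalized CPM plus 0.5). The members and lists were chosen with earlier results of these data known, and the lists are no independent evidence. Alternatives were RLE scaling, library size alone, TMM without Defa genes, no filter beyond 1 count, DESeq2 1.42.0, limma-voom (limma 3.58.1), a minimum of 1 CPM in 4 or more libraries, a replicate block, an adjusted p under 0.01 and leaving out each library. Library size alone without TNF replicate 4 was added after seeing the data.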

Additional observations from a re-analysis of the deposited data

Results flagged for a closer look

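In groups of 4 libraries, 24 sets of values were checked for a library whose gap to its nearest neighbour exceeds, as a share of the range of the group, Dixon's 95% critical value, which chance gives in about 1 of 20 groups. The check marked 2 values. The log2 ratio of Hsp90aa1 to Hsp90ab1 in TNF replicate 1 was -2.29, below the -2.09 to -2.06 of the other TNF libraries, yet above the PBS values of -2.91 to -2.60. The summed share of the 10 members in TNF replicate 4 was 0.0585% of counts, against 0.122% to 0.128% in the other TNF libraries. That library also gave 51.4% of its counts to Defa genes. In normalized CPM the members summed to 1306 there and to 1155 to 1223 in the other TNF libraries.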

How the results depend on the processing

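Of the 3 members called, Bag3 kept its direction and its call in all alternatives except library size alone. Under library size alone 3182 genes were called (757 higher), with 0 members and 9 network genes (1 higher), and the values of Hspa1b (-0.0307), Hspa8 (-0.0152), the Paneth genes Itln1 (-0.28) and Mmp7 (-0.0630) reversed. Without a filter 11 network genes were lower, and Hsp90aa1 (0.40, edgeR adjusted p = 0.0959) was not called. At an adjusted p under 0.01, 1 member and 18 network genes (13 higher) stayed called, with 1691 genes lower. With library size alone and without TNF replicate 4, 1 member was higher, 1 lower and 16 network genes lower, and Lyz1 (-0.0203), Itln1 (-0.12), Mmp7 (-0.29) and Hspa1a plus Hspa1b (0.0554) reversed. The Hspa1 sum also reversed in limma-voom (0.0890) and without PBS replicate 3 (0.45) or TNF replicate 4 (0.22), Hsph1 without PBS replicate 3 (0.0085), Mmp7 without TNF replicate 4 (-0.12) and the ratio of the Hspa1 sum to Hspa8 without TNF replicate 4 (0.0028). The cause of these moves was not tested.

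Leaving out 1 library gave 4757 to 6923 genes called (2469 to 3657 higher, 2288 to 3266 lower). Members called ranged from 1 (without PBS replicate 1) to 4 (without TNF replicate 4), with 0 lower, and network genes from 24 to 38 (18 to 27 higher, 6 to 11 lower). Hsph1 ranged from -0.25 to 0.0085 and Mmp7 from -0.12 to 0.89. The Hspa1 sum ranged from -0.25 to 0.45, its log2 ratio to Hspa8 from -0.95 to 0.0028 and the log2 ratio of Hsp90aa1 to Hsp90ab1 from 0.53 to 0.65. At least 1 CPM in 4 libraries left out Hspa1b and the Hspa1 sum, so those have no value there.

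The labels give both groups the replicate numbers 1 to 4. No source ties the numbers across groups, so they were not taken to pair the libraries. Deviations from the group means correlated at 0.0464, 0.0760, -0.196 and -0.164 within equal numbers. Between unequal numbers the correlations were -0.196 to 0.298. With the replicate block 5087 genes, 3 members and 23 network genes were called, and Hspa8 had 0.41 (edgeR adjusted p = 0.136). Tcp1 (0.62), Grpel1 (0.85) and Hspa5 (0.63) were not called in that fit, at values near those without the block, and Grpel2 was called lower (-0.51). The sign-flip test that pairs equal numbers cannot give a p under 0.125.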
